A study of Homo sapiens with 4 samples.

Results

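AEBP2, SUZ12 and FBRS are genes of the Polycomb system, and the m7G peaks that carried their names in the deposited peak lists of HepG2 cells are described here. The members were all peaks named for these 3 genes, 8 of 3355 peaks in replicate 1 and 7 of 4747 in replicate 2. In all, 3769 genes had a peak in at least 1 list. AEBP2, SUZ12 and FBRS were picked with their folds and their presence in both lists already known, so those values describe the genes and were not tested.

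HepG2 is a line of human liver cancer cells, used here without treatment, and all samples came from this one line. Poly(A) RNA was sequenced as 2 samples after immunoprecipitation (IP) with an anti-m7G antibody, m7G being N7-methylguanosine, and as 2 input samples taken without antibody. The values analysed are the authors' peaks of the IP samples, where a peak is a stretch of mRNA called as enriched and its fold is the authors' own enrichment value. Input values were not analysed here, read depth is unknown, and it is not stated whether the replicates were separate cultures, so the spread between them may be technical. Of 13 hepatocyte and HepG2 markers, 7 had a peak in both lists, among them APOB and SERPINA1, while ALB, AFP, APOA2, TTR, FGB and HNF4A had none, which does not say that their mRNA was absent. Among markers of other cell types, LYZ (1 of 5 immune genes) and ACTA2 (1 of 4 stellate and fibroblast genes) had peaks, and 0 of 3 endothelial genes did.

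Polycomb proteins keep genes silent through marks on histones. Polycomb repressive complex 2 (PRC2) methylates histone H3 at a lysine, and PRC1 attaches ubiquitin to histone H2A; the PR-DUB complex removes that ubiquitin. SUZ12 is the scaffold subunit that holds PRC2 together. AEBP2 is a zinc finger protein that binds PRC2 as an accessory subunit. FBRS, a relative of AUTS2, is found in variant PRC1 complexes. In mRNA, m7G forms the cap at the 5' end and has also been described inside transcripts. Which of these a given peak reports was not tested.

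The sequences below show where peaks meet landmarks of the RNA, with peak-covered bases in capitals. They come from the RefSeq table of promoter windows (GRCh38.p14), which held a window for AEBP2 and SUZ12. The first pair shows the end of a peak block and the 6 bases that follow it in the genome, for AEBP2 (chr12:19440349-19440376, plus strand, replicate 2) and for ASXL1, a subunit of PR-DUB (chr20:32358815-32358838, plus strand, both replicates).
AEBP2: GCCGCATGGACTCGGAGGACAGgtcagt
ASXL1: GCCGAGGCCGCGCGCCTGgtgagg
In each, the genome after the block opens with gt, the letters at the start of most introns. The next set shows the first 30 bases from the outermost annotated start of genes whose peak began in or ahead of them: SUZ12 (chr17:31937007-31937036, plus strand, replicate 1), EZH2, the methyltransferase of PRC2 (chr7:148884262-148884291, minus strand, replicate 2), RBBP4, a histone-binding subunit of PRC2 (chr1:32651208-32651237, plus strand, replicate 1), and FOXK2, a forkhead protein that binds PR-DUB (chr17:82519732-82519761, plus strand, replicate 1).
SUZ12: ggaGCGAGGCCAGGGTAGGGTGAGCGGCCT
EZH2: gTTTGGCGCTCGGTCCGGTCGCGTCCGACA
RBBP4: GGAAACAATAGAGGCCGCGCGCACAGAGCG
FOXK2: gcccctcgccgccgctCGCTCGCTCGCCGG
The capitals begin 3 bases after the annotated start in SUZ12, 1 base after it in EZH2 and 16 bases after it in FOXK2, and 60 bases ahead of it in RBBP4. Of the first 50 bases, 25 were G in SUZ12, 19 in EZH2, 16 in FOXK2 and 15 in RBBP4, against a median of 15 over the 35116 windows of the table. After the start listed for AEBP2, 10 of 50 were G, but this start lies downstream of the first block and the peak covers none of these bases.

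AEBP2 had 1 peak in each list, and its folds were among the highest of both. In replicate 1 the peak ran from 19439884 to 19440304 on chromosome 12 (GRCh38, plus strand) as a single block of 421 nt with a fold of 26.0. In replicate 2 it ran from 19439674 to 19462533 as 2 blocks of 697 and 24 nt, together 721 nt, with a fold of 35.8. The mean fold was 30.9 ± 6.93 (SD, n = 2). The scaling of the deposited folds is not stated and may differ between the lists, so each mean or ratio of folds over the lists is on the scale as deposited. The fold ranked 32nd of 3355 in replicate 1, above 98.8% of that list, and 38th of 4747 in replicate 2, above 99.2%. The read counts behind the folds are not known here, so whether the high folds of AEBP2 and SUZ12 rest on few reads was not tested.

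The whole replicate 1 peak of AEBP2 lay inside the replicate 2 peak, of which it made up 58.4%. Replicate 2 extended it by 210 nt on the 5' side, and on the 3' side to the end of the first block at 19440370 and across an intron of 22139 nt. The last 22 bases of this first block are the capitals printed above. The second block began at 19462510 and held only 24 nt. By length, the peak was longer than 95.0% of peaks in replicate 1 and 99.1% in replicate 2. Spliced peaks made up 26.4% of replicate 1 and 28.2% of replicate 2.

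The AEBP2 peak was not at an outer edge of the annotated gene span. Whether it lies at the start of a transcript that begins inside this span was not tested. The RefSeq span of AEBP2 runs from 19404072 to 19522227, so the peak began 35812 nt inside it in replicate 1 and 35602 nt inside it in replicate 2. The start listed in the promoter table is 19440599, downstream of the first block of the peak, so a transcript that holds this block would begin further upstream than the listed one. Which of the RefSeq transcripts of AEBP2 holds it was not analysed here.

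SUZ12 had its peaks at the very start of the gene in both lists, but the lists divided the stretch differently. Replicate 1 held 2 unspliced peaks on chromosome 17 (plus strand). The first, from 31937010 to 31937190 (181 nt), had a fold of 29.7. The second, from 31937309 to 31937399 (91 nt), had a fold of 5.77. Replicate 2 held 1 unspliced peak from 31937070 to 31937489 (420 nt) with a fold of 12.7, a value between those of replicate 1. This peak overlapped both replicate 1 peaks, by 121 nt and 91 nt, and included the whole gap of 118 nt that separated them.

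The first SUZ12 peak of replicate 1 began 3 nt after the annotated gene start at 31937007, as the capitals in the printed sequence show. Its midpoint was 93 nt from the 5' end; the second had its midpoint at 347 nt, and the replicate 2 peak at 272 nt. Thus 1 of the 2 SUZ12 peaks in replicate 1 and 0 of 1 in replicate 2 were centred no more than 200 nt from the 5' end, a class that held 27.4% of all peaks in replicate 1 and 21.7% in replicate 2. The SUZ12 peak that reached furthest ended 482 nt after the gene start, 63549 nt before the 3' end of the gene. The transcribed pseudogene SUZ12P1 on the same chromosome and the pseudogene SUZ12P2 had 0 peaks in either list. Nearly all listed genes were protein-coding (3759 such genes had a peak), so pseudogenes could hardly appear and nothing is read from this 0. How reads shared between near-identical genes were counted is not given in the sources used here, so the SUZ12 values carry that uncertainty.

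Among the one-to-one pairs, the folds of SUZ12 differed between the lists by more than those of the other members. The SUZ12 pair set a peak of 181 nt against one of 420 nt, of which the overlap made up 28.8%, so its folds cover unlike stretches. Matched to the first replicate 1 peak, the folds were 29.7 in replicate 1 and 12.7 in replicate 2, a ratio of 2.34 between the higher and the lower (mean 21.2 ± 12.0, SD, n = 2). Of the 2128 shared peaks of all genes, 93.4% had a smaller ratio than this and 10.8% had folds more than 2 times apart. The unpaired second SUZ12 peak of replicate 1 had a fold of 5.77, below the 12.7 of replicate 2, a ratio of 2.2 in the other direction. The fold of 29.7 was 27th of 3355 in replicate 1, and 12.7 was 219th of 4747 in replicate 2, above 99.1% and 94.3% of their lists. The replicate 1 fold was 4.0 times 7.42, the commonest fold of that list (107 peaks), and the replicate 2 fold was 2.01 times 6.33, the commonest there (196 peaks). On this scale, chosen after the values were seen, the ratio between the lists was 2.0 for SUZ12, 1.61 for AEBP2 and between 1.07 and 1.34 for FBRS.

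FBRS had many moderate peaks along its length instead of a single high one. It had 5 peaks in each list, and 99.3% of genes in replicate 1 and 98.4% in replicate 2 had fewer. The peaks covered 1444 nt in replicate 1 and 1414 nt in replicate 2, with 1053 nt in common (72.9% and 74.5% of these lengths). All lay on chromosome 16 (plus strand) within the gene's span from 30658431 to 30670810. Their folds ran from 1.57 to 5.71 in replicate 1 (median 4.18) and from 2.5 to 5.23 in replicate 2 (median 3.34).

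The first FBRS peak carried the highest fold of the gene in both lists. It had 3 blocks and a fold of 5.71 in replicate 1, from 30659519 to 30661201, with blocks of 459, 180 and 22 nt (661 nt). In replicate 2 it also had 3 blocks, from 30659699 to 30661201, with 279, 180 and 22 nt (481 nt) and a fold of 5.23. The lists thus agreed on the last base and on both introns, of 285 and 737 nt, and differed by 180 nt at the start. Peaks with 3 or more blocks made up 5.81% of replicate 1 and 6.09% of replicate 2. Its start lay 1088 nt from the annotated gene start in replicate 1 and 1268 nt in replicate 2.

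The second FBRS peak again crossed a junction at the same bases in both lists. It had 2 blocks and ran from 30662764 to 30664449 in replicate 1 (96 and 235 nt, fold 4.18). In replicate 2 it ran from 30662764 to 30664389 (96 and 175 nt, fold 3.29). The intron between the blocks was 1355 nt long in both lists.

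The remaining FBRS peaks were unspliced, and 2 of them were found in 1 list only. Replicate 1 alone had a peak of 61 nt from 30665317 to 30665377, with the lowest fold of all members (1.57) and a -log10 p of 3.59. Replicate 2 alone had a peak of 151 nt from 30669161 to 30669311, with a fold of 3.34. Near the 3' end, a peak from 30669611 to 30669731 in replicate 1 (121 nt, fold 2.19) overlapped one from 30669581 to 30669671 in replicate 2 (91 nt, fold 2.5) by 61 nt. The last peak ran from 30670061 to 30670330 in replicate 1 (270 nt, fold 4.24) and from 30670091 to 30670510 in replicate 2 (420 nt, fold 4.41). It ended 480 nt and 300 nt before the 3' end of the gene in replicates 1 and 2.

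The 4 FBRS peaks found in both lists had similar folds. The ratio of the higher to the lower fold was 1.09 for the first peak, 1.27 for the second, 1.14 for the fourth peak of each list and 1.04 for the last. Each was below 1.5, as for 72.6% of the shared peaks of all genes, whose median ratio was 1.25. Their order by fold was the same in both lists, with the first peak highest, then the last, the second and the fourth; the second and the last were nearly level in replicate 1 (4.18 and 4.24) and further apart in replicate 2 (3.29 and 4.41). The mean folds were 5.47 ± 0.339 for the first, 3.73 ± 0.629 for the second, 2.34 ± 0.219 for the fourth and 4.33 ± 0.12 for the last peak (SD, n = 2).

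**Figure D1:**
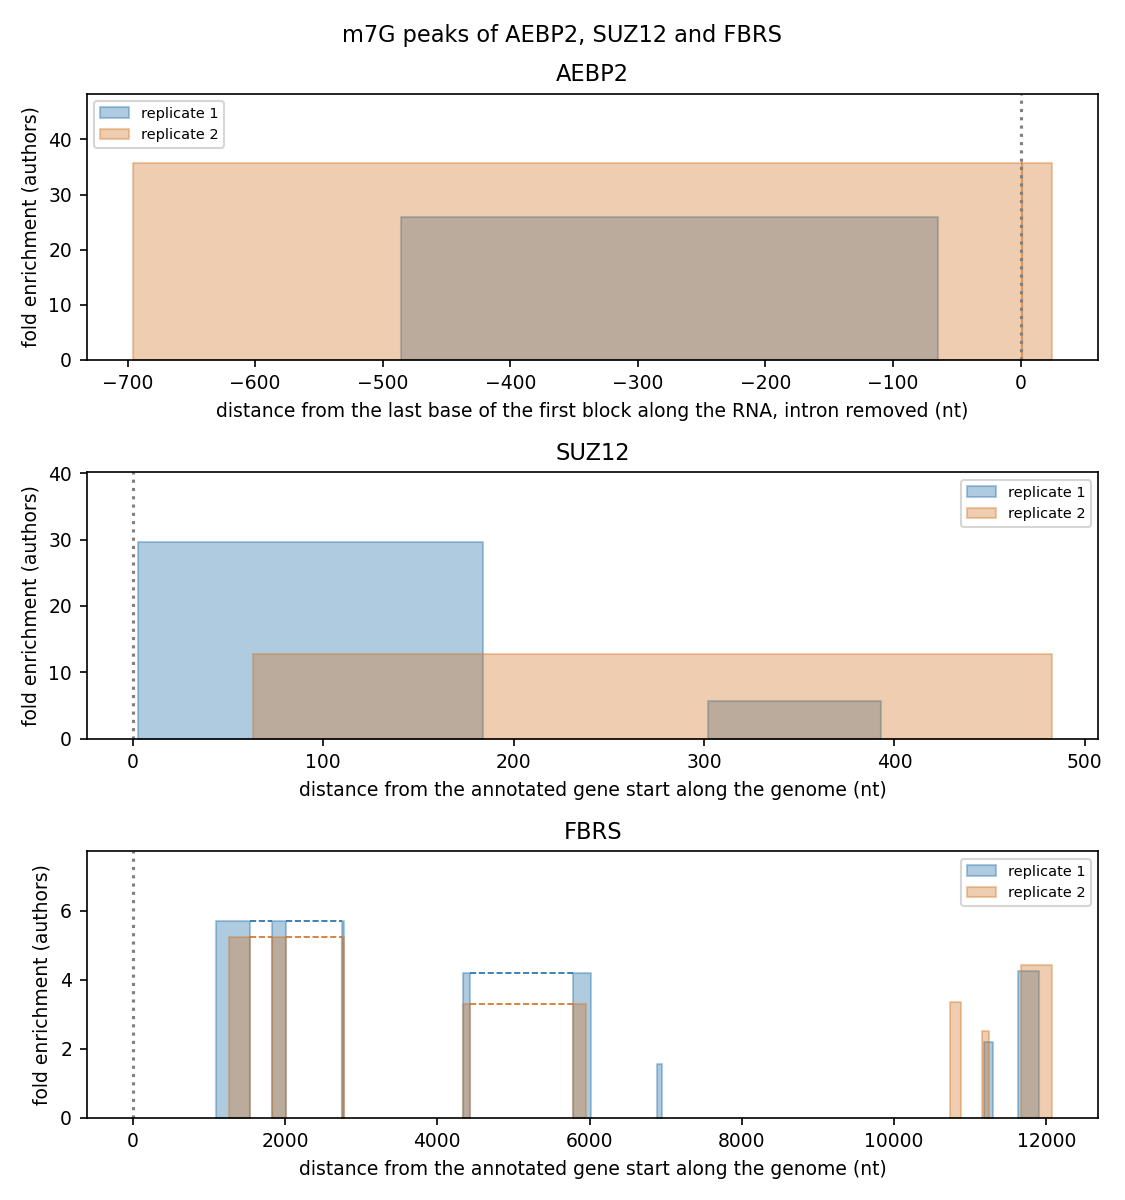
Peaks of AEBP2, SUZ12 and FBRS in m7G IP replicates 1 (blue) and 2 (orange); each filled box is a peak block, its height the authors' fold (linear axis from 0), dashed lines join blocks of a peak, and the dotted line marks the end of the first block (AEBP2) or the annotated gene start (SUZ12, FBRS). The x axes give distance in nt, on a different scale in each panel; the AEBP2 peak of replicate 1 lies inside that of replicate 2, the SUZ12 peaks end no further than 482 nt from the start, and FBRS has 5 peaks per list.

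All 3 genes had a peak in both lists, as did 51.7% of the 3769 genes of the lists, and all 3 had a shared peak, as did 45.3%. Peaks were called shared where, in the same gene and strand, their exon blocks had in common 50% or more of the shorter one. Of the member peaks, 6 formed such one-to-one pairs: 1 in AEBP2, 1 in SUZ12 and 4 in FBRS. Over all genes, the paired share was 63.4% in replicate 1 and 44.8% in replicate 2. Since the genes were chosen for their presence in both lists, nothing is read from these counts.

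The 6 pairs overlap by the rule that made them, so only their edges are described here. None of the 6 pairs had the same blocks in both lists, and 1, the second FBRS peak, overlapped by at least 80% of each peak. The share of all shared peaks that pass these rules is not given here, so nothing is read from these counts. The starts of the pairs differed by 210 nt in AEBP2, 60 nt in SUZ12, and 180, 0, 30 and 30 nt in FBRS. These are all whole steps of 30 nt. Over 1326 unspliced shared peaks of all genes, 97.7% of start differences were within 1 nt of such a step, with 30.3% at the same start, so peak edges in these lists are placed to about that step.

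By fold, the order of the members within each list was not the same. In replicate 1 the first SUZ12 peak (29.7) was above AEBP2 (26.0), and in replicate 2 AEBP2 (35.8) was above SUZ12 (12.7). The mean fold was 30.9 for AEBP2 and 21.2 for SUZ12, whose SD of 12.0 came from paired peaks of unlike extent. No order of AEBP2 and SUZ12 by fold is drawn from these values. FBRS was below both in each list, at 5.71 and 5.23. As a percentile of the list, the best shared peak averaged 99.0% ± 0.256 in AEBP2, 96.7% ± 3.42 in SUZ12 and 71.7% ± 3.73 in FBRS (SD, n = 2). The median fold of all peaks was 3.71 in replicate 1 and 3.87 in replicate 2.

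**Figure D2:**
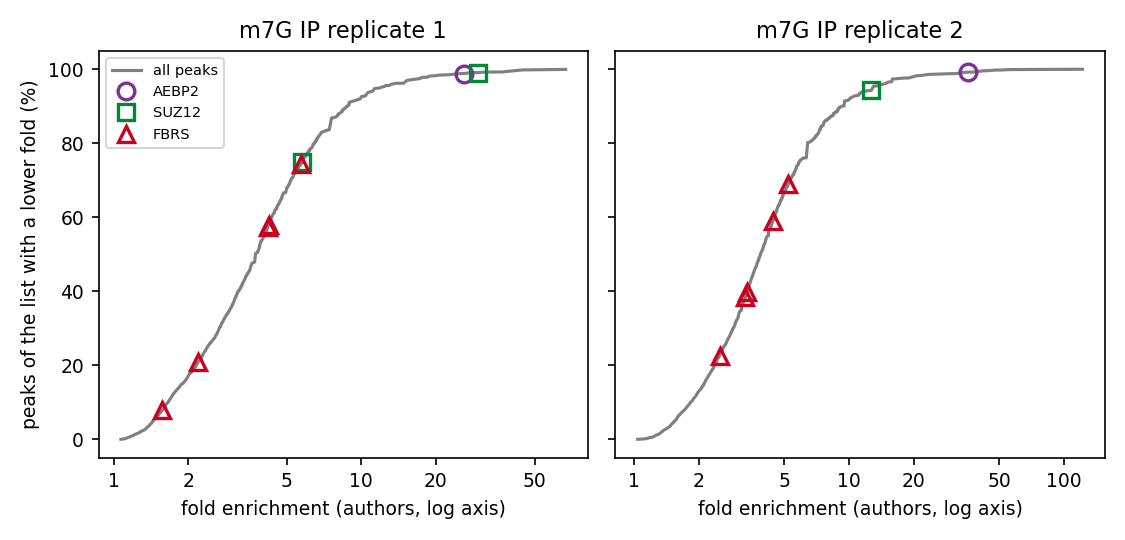
Percentage of peaks with a lower fold (y axis) against the authors' fold (x axis, log scale) for all peaks of replicate 1 (left) and replicate 2 (right), with the peaks of AEBP2 (circles), SUZ12 (squares) and FBRS (triangles) marked. AEBP2 lies above 98.8% and 99.2% of peaks, and the FBRS peaks spread from 7.81% to 74.4% in replicate 1 and from 22.6% to 69.1% in replicate 2.

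Fold and p placed the members differently. The AEBP2 peak and the first FBRS peak of replicate 2 had the same -log10 p of 12.7 with folds of 35.8 and 5.23. In replicate 1 the -log10 p was 10.2 for AEBP2, 6.5 and 5.03 for the SUZ12 peaks and between 3.59 and 9.14 for FBRS. In replicate 2 it was 7.5 for SUZ12 and between 5.43 and 12.7 for FBRS. By p, AEBP2 stood above 77.5% of replicate 1 and 86.6% of replicate 2. The first and second SUZ12 peaks stood above 60.9% and 43.1% of replicate 1, and the SUZ12 peak of replicate 2 above 73.0%. Each of these places by p was lower than that peak's place by fold. The p-values are the authors' own for each peak.

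**Figure D3:**
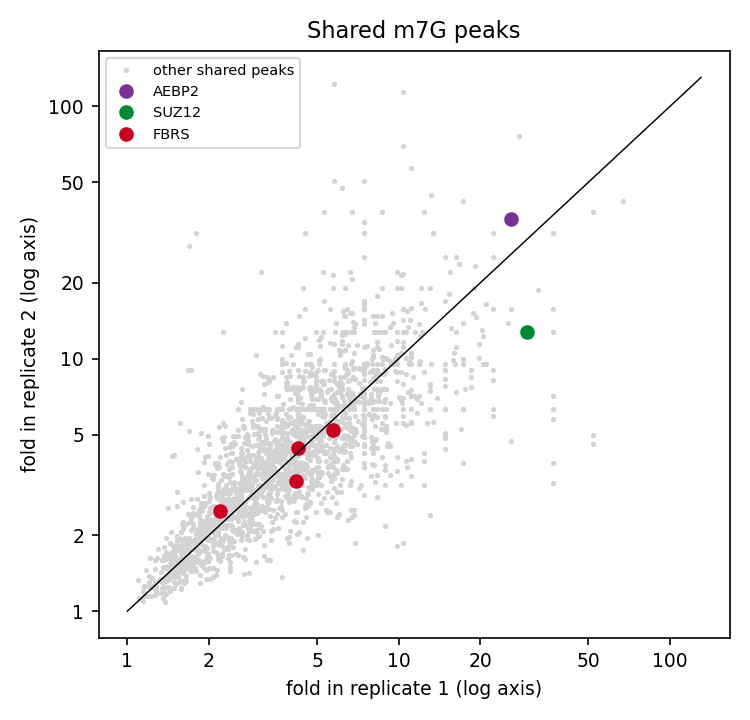
Authors' fold in replicate 1 (x axis) and replicate 2 (y axis), both on log scales, for 2128 one-to-one shared peaks, with those of AEBP2 (1), SUZ12 (1) and FBRS (4) coloured and the line of equal folds drawn. The FBRS pairs lie near the line, AEBP2 above it (26.0 and 35.8) and SUZ12 below it (29.7 and 12.7).

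The genes with the most similar pair of folds were found from the distance between log2 folds at the best shared peak, over 1707 other genes and the 2 lists. Nearest to AEBP2 were ROGDI (22.3 and 31.6, distance 0.29), FBXL19 (37.1 and 31.6) and HDGFL2 (22.3 and 25.3). Nearest to SUZ12 were the receptor phosphatase gene PTPRF (25.2 and 13.9, distance 0.27), PTK7 (37.1 and 12.7) and GPSM1 (26.0 and 15.8). Nearest to FBRS were FOXM1, a transcription factor of dividing cells (5.56 and 5.23, distance 0.04), HCFC1 (5.56 and 5.27) and OTUD1 (5.86 and 5.33). HCFC1, a cofactor that binds PR-DUB, is itself on the Polycomb list. Near FBRS the folds are common in both lists, so its neighbours lie much closer than those of AEBP2 or SUZ12.

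The 3 genes were then set beside the rest of a list of 63 Polycomb genes. Of these, 31 had a peak in either list and 32 had none, beside 18.7% with a peak among all 20056 protein-coding genes of the RefSeq table, many of which may not be expressed in HepG2. In all, 23 of the 31 had peaks in both (74.2%), or 20 of 28 (71.4%) without AEBP2, SUZ12 and FBRS, beside 51.7% of all genes. The median fold of their peaks was 4.18 in replicate 1 and 3.78 in replicate 2, or 3.89 and 3.69 without AEBP2, SUZ12 and FBRS, beside 3.71 and 3.87 for all peaks. AEBP2 and SUZ12 had the highest folds of the list in replicate 1, and AEBP2 in replicate 2, where SUZ12 (12.7) came after WDR5 (16.9) and level with EED and RING1 (12.7 each). A gene without a peak can lack m7G or lack mRNA, which these lists do not separate.

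Within the PRC2 core, SUZ12 and the histone-binding subunit RBBP7 had peaks in both lists. RBBP7 had much lower folds than SUZ12, 3.13 and 3.8 in replicates 1 and 2, also near its 5' end. EED, which binds methylated histone H3, had a peak in replicate 2 only (fold 12.7), as did EZH2 (7.38). RBBP4 had one in replicate 1 only (10.4), and EZH1 had none. Of the other PRC2 accessory subunits, PHF1 (highest folds 2.34 and 3.47) and EPOP, listed as C17orf96 (2.65 and 3.21), had peaks in both lists. JARID2, MTF2, PHF19, LCOR and EZHIP had no peak.

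In the variant PRC1 group, FBRS was 1 of 7 genes with a peak among 20, and 6 of the 7 had peaks in both lists. Its relative FBRSL1 had 3 peaks in replicate 1 and 2 in replicate 2, with highest folds of 4.29 and 5.5, close to the 5.71 and 5.23 of FBRS. In FBRSL1 the highest fold was at the peak nearest the 3' end, whose midpoint lay 1616 and 1586 nt from that end in replicates 1 and 2; in FBRS it was at the peak nearest the 5' end. AUTS2, the third gene of this family, had no peak. PCGF3 and PCGF5, subunits of the variant PRC1 complexes that hold FBRS, had peaks in replicate 2 only, with highest folds of 4.22 and 4.6. RING1, the ubiquitin ligase of PRC1, had highest folds of 11.5 and 12.7, at 2892 and 2952 nt from its 5' end, and BMI1, a PRC1 subunit, had 6.36 and 5.87. All 6 PR-DUB genes with a peak (BAP1, ASXL1, FOXK1, FOXK2, HCFC1 and MBD6, of 11) were in both lists, and 4 of them, not FOXK1 or FOXK2, had a shared peak. Of all genes with a peak, 51.7% were in both lists and 45.3% had a shared peak. The groups are small and were chosen with earlier results known, so nothing is read from their counts.

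By position, 7 of 43 peaks of the Polycomb list in replicate 1 (16.3%) and 5 of 51 in replicate 2 (9.8%) were centred that close to the 5' end (200 nt or less), beside 27.4% and 21.7% of all peaks. The first SUZ12 peak was one of these, and none of the AEBP2 or FBRS peaks was. The others in replicate 1 were in RBBP4, RBBP7, RING1, E2F6, BAP1 and FOXK2, and in replicate 2 in EZH2, RBBP7, RING1, E2F6 and BAP1. These positions were measured from the outer edge of each gene's span, and transcript starts inside it, as may exist for AEBP2, were not analysed.

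**Figure D4:**
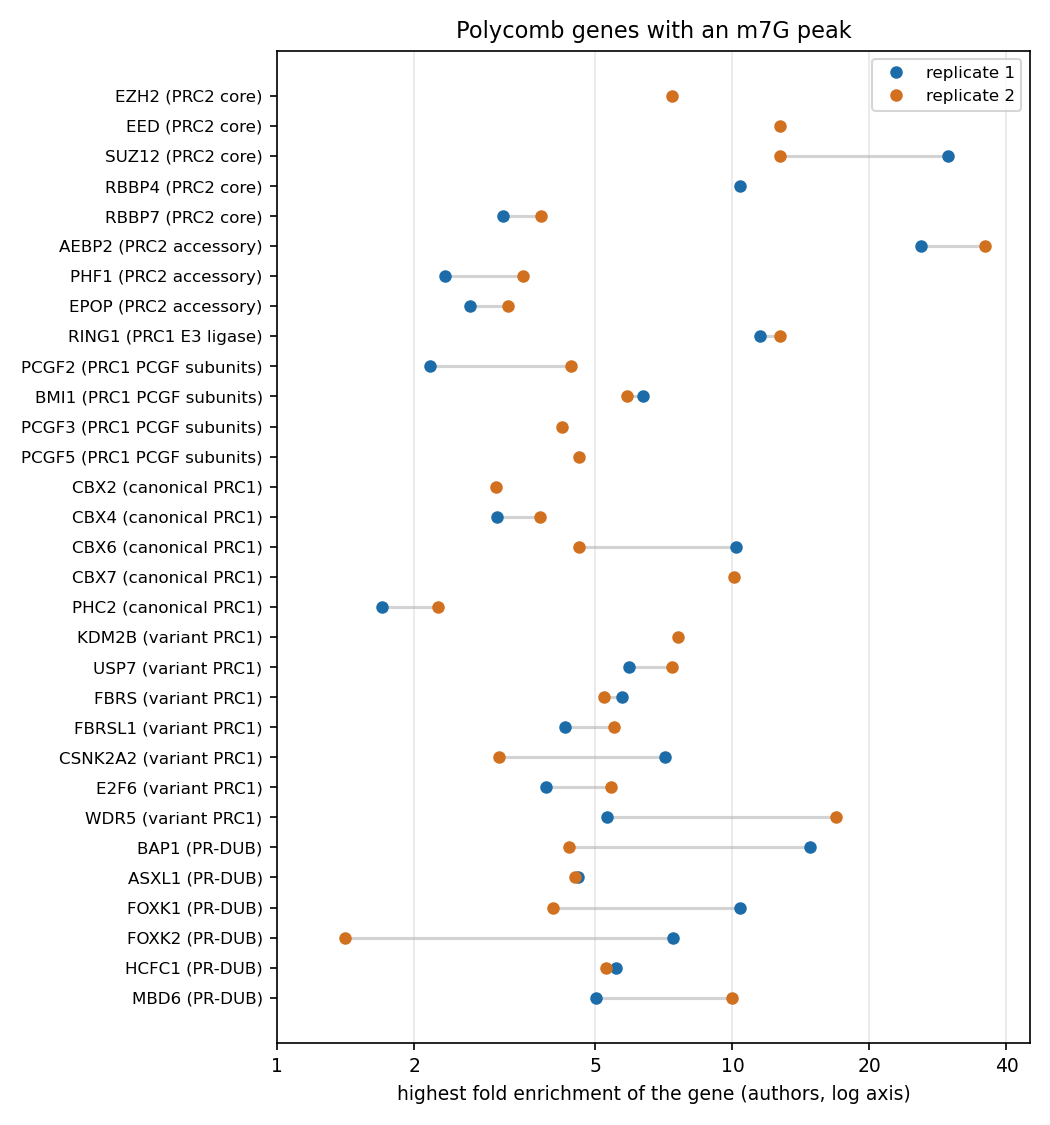
Highest authors' fold (x axis, log scale) in replicate 1 (blue) and replicate 2 (orange) for the 31 Polycomb genes with a peak, grouped by complex, with grey lines joining genes found in both lists. AEBP2 (26.0 and 35.8) stands at the right in both lists, and SUZ12 in replicate 1 (29.7). In replicate 2 SUZ12 (12.7) is below WDR5 (16.9) and level with EED and RING1. FBRS (5.71 and 5.23) is close to FBRSL1 (4.29 and 5.5).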

How the data were processed

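Peak lists of the 2 m7G IP samples, 1 list per sample per the labels, were analysed; input values were not analysed here. The aligner STAR and the build GRCh38 appear, per the submitters' processing notes, without version or role. Which program called the peaks, with which filters and libraries, is likewise not given in the labels or headers. Per the file headers, the deposited columns used are a p-value, log10 p and log10 FDR (used as scores, since some are beyond the range of the p-value) and a fold enrichment ratio per peak. The smallest -log10 FDR in either deposited list is 1.32. Positions are given from 1.

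Peaks were paired one to one, largest overlap first, within gene and strand at 50% or more of the shorter peak; the pairing was tested on simulated shifts. Gene spans and sequences are from RefSeq tables of GRCh38.p14. Distances are genomic. No test was run. The genes, the Polycomb list and the analyses were chosen with earlier results of these data known. Named are the 3 genes, Polycomb and marker genes, and the 3 genes nearest to each of the 3 by log2 folds. Python 3.11.15, numpy 2.4.6, pandas 2.3.3 and matplotlib 3.10.9 were used.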

Additional observations from a re-analysis of the deposited data

How the results depend on the processing

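The number of member peaks shared was 6 at 50% of the shorter peak and with 1 base; among the 50% of peaks that had the smaller p in their list it was 5; it was 1 with 80% of each peak and 0 with identical blocks, stricter rules that pass fewer pairs by construction. Polycomb genes in both lists numbered 23 by name, 21 with a peak shared by 50% of the shorter or by 1 base, 6 with 80% of each peak and 13 among the smaller-p peaks. Of all genes with a peak, 51.7% were in both lists by name and 45.3% had a peak shared by 50% of the shorter. Shares over all genes at the other rules are not given here, so nothing is read from how the member or Polycomb counts fall. The fold percentile of AEBP2 was 99.0, against 98.6 among the highest peak of each gene and 98.7 among the smaller-p peaks; for FBRS it was 71.7, against 63.2 and 65.5. Without one replicate it ranged from 98.8 to 99.2 for AEBP2, from 94.3 to 99.1 for SUZ12 and from 69.1 to 74.4 for FBRS. The fold percentile of SUZ12 was 96.7, against 95.3 among the highest peak of each gene and 95.4 among the smaller-p peaks. Against single-block peaks only, the value was 99.0 for AEBP2, 96.5 for SUZ12 and 70.8 for FBRS. The spread of SUZ12 over the 2 lists is wide (SD 3.42), so a shift smaller than it does not show a stable value. Leaving out a replicate gives no value for what both lists share. No paired analysis was possible because no comparison of IP with input was made here, input values not being among those analysed, and no result comes from a test. Unknown depth limits which peaks could be called.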
